A study of Mus musculus with 9 samples.

Results

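The genes described here are 10 genes of hepcidin control and iron handling, followed in the liver of KKAy mice on 9 one-colour arrays. The members were given as a list (Hamp, Hamp2, Trf, Tfrc, Tfr2, Slc40a1, Hfe, Bmp6, Smad7 and Cp), and every probe set that the platform annotation assigns to them was taken. A probe set is a group of short probes that together read 1 transcript. Of 28 such probe sets, 24 carried 1 gene symbol and were tested, 1 was shared by Trf and Srprb, and 3 were control probe sets of Tfrc, which were not tested. The 24 covered 9 of the 10 genes, among 18193 genes on the array: Cp had 8, Tfrc 3, Bmp6 1, and Hamp, Hamp2, Tfr2, Slc40a1, Hfe and Smad7 had 2 each. Trf, which encodes transferrin, had no probe set of its own. By mean level, 21 of the 24 lay at or above the median of all probe sets, a log2 signal of 6.04, and 3 lay below it.

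KKAy is an obese strain carrying the yellow agouti allele and is used as a model of type 2 diabetes. All groups were KKAy liver, 3 arrays each, from mice aged 8 weeks on a chow with 34% fat. The untreated group has the treatment label none, and the labels leave unstated whether its mice are the controls that the protocol injects with culture medium. The insulin group received intraperitoneal injections of 100 µL with insulin at 40 µg/mL. The BI group received the same volume and total insulin, of which 11% was in biomineralized form. The growth protocol attached to BI replicate 2 describes rats and names no such chow. Whether each array holds RNA of 1 animal or of a pool is not labelled, so the p-values reflect sample-to-sample spread that may be technical.

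Hepcidin, the product of Hamp, is a peptide hormone made by hepatocytes that binds the iron exporter ferroportin and causes its degradation, which lowers the release of iron into blood. Its transcription is raised by iron through BMP6, a ligand made by liver sinusoidal endothelial cells that acts on receptors and SMAD proteins in hepatocytes, and by inflammation through interleukin 6 and STAT3. HFE and transferrin receptor 2 take part in the sensing of transferrin-bound iron, and SMAD7 is an inhibitor that the same pathway induces.

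Mice carry a second hepcidin gene, Hamp2, close to Hamp on chromosome 7; RefSeq lists 1 gene between them, Usf2-ps1. The RefSeq promoter windows of both (assembly GRCm38.p6, minus strand, 250 bases before to 50 after the annotated start) are shown because the 2 genes were read by probe sets that correlated, and because motifs of both known inputs of hepcidin can be looked for in them. Hamp lies at chr7:30943980-30944279 and Hamp2 at chr7:30924132-30924431. Capitals mark GGCGCC, the core of the BMP response element, and TTCTTGGAA, a match to the STAT site TTCNNNGAA.
Hamp: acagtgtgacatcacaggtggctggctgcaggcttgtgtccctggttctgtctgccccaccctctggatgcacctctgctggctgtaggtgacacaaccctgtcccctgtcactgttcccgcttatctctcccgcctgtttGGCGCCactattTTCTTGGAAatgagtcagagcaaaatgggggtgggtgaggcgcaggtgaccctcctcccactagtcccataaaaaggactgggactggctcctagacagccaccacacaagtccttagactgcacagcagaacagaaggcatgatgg
Hamp2: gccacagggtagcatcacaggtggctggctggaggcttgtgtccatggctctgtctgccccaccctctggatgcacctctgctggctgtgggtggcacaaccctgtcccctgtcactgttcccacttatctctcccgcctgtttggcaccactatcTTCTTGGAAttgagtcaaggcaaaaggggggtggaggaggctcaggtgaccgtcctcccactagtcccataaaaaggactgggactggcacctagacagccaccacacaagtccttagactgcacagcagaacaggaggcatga
The windows were 92.93% identical, with 276 identical bases of 297 aligned. The STAT site match stood in both, 97 to 89 bases before the start in Hamp and 94 to 86 bases before it in Hamp2. GGCGCC stood 109 to 104 bases before the start in Hamp and was not in the Hamp2 window. Searched on both strands, GGCGCC was in 11.87% of 32851 RefSeq windows of this length and TTCNNNGAA in 8.298%. CACGTG, an E-box, was in 7.15% of windows and GTCTAGAC, a palindromic SMAD binding element, in 0.2131%, and neither was in the window of Hamp or Hamp2. Windows of 7 members were used, 11 in all. No window of Trf, Slc40a1 or Smad7 was among them, so these genes were not searched for the motifs. Outside the hepcidin genes, GGCGCC was in 1 of 2 Tfrc windows and CACGTG in the Bmp6 window. A match of letters is a description and not a measured site.

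Each value below is a log2 signal as the authors deposited it, so 1 unit is a 2-fold difference. Levels are compared between arrays for one probe set and not between probe sets. Detection calls were not used here, so it is not known which dim probe sets stood above background. Array medians lay between 6.12 and 6.30, and arrays correlated as well between groups (0.909 to 0.921) as within them (0.911 to 0.920). The liver label was checked with hepatocyte markers, of which 9 of 10 were measured: albumin (Alb) read 15.15 to 15.45. Of 7 pancreas markers 3 were measured: Ins2 read 4.89 to 7.02, Cpa1 1.02 to 3.34 and Cela1 10.25 to 11.90. In bulk liver, fewer cells of a type and less RNA per cell cannot be told apart.

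No probe set of a member passed the threshold, a limma adjusted p of 0.05 over 45037 probe sets, in any comparison. Against untreated, insulin gave 0 of 24 members called (0% of all probe sets called) and BI gave 0 of 24 (0.0111% of all probe sets, that is 5). BI against insulin gave 0 of 24 (0% of all), and the F test of any difference between the 3 groups gave 0 of 24 (0% of all). At an unadjusted limma p under 0.05, there were 0 members in each comparison and in the F test, while 4.47%, 4.48% and 4.04% of all probe sets reached it in insulin minus untreated, BI minus untreated and BI minus insulin, and 4.4% in the F test. Refitting with a variance trend and robust fitting also called 0 members, as did a fit without BI replicate 2. In that fit BI minus untreated was 1.02 for Hamp, 0.41 for Slc40a1, -0.30 for Bmp6, -0.36 for Smad7 and -0.72 for Tfrc, each on its brightest probe set and of the same sign as with all arrays. The smallest unadjusted member p was 0.0689, 0.0565 and 0.0609 in the 3 comparisons in that order, and the limma adjusted p was 0.999 or above for each member.

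Counting the arrays themselves, 2 of 24 members had groups that did not overlap in insulin against untreated (9.19% of all probe sets), 2 in BI against untreated (9.21%) and 4 in BI against insulin (9.6%). By sign alone, 6 members were higher and 18 lower with insulin than in untreated liver, with a median difference of -0.13 against 0.02 over all probe sets. BI against untreated split 12 and 12, with a median of -0.01 against 0.02. BI against insulin had 19 higher and 5 lower, with a median of 0.14 against -0.01. The insulin and BI comparisons share the untreated arrays, and probe sets of one gene are not separate observations. The plot of group differences gives the estimates and their intervals.

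**Figure D1:**
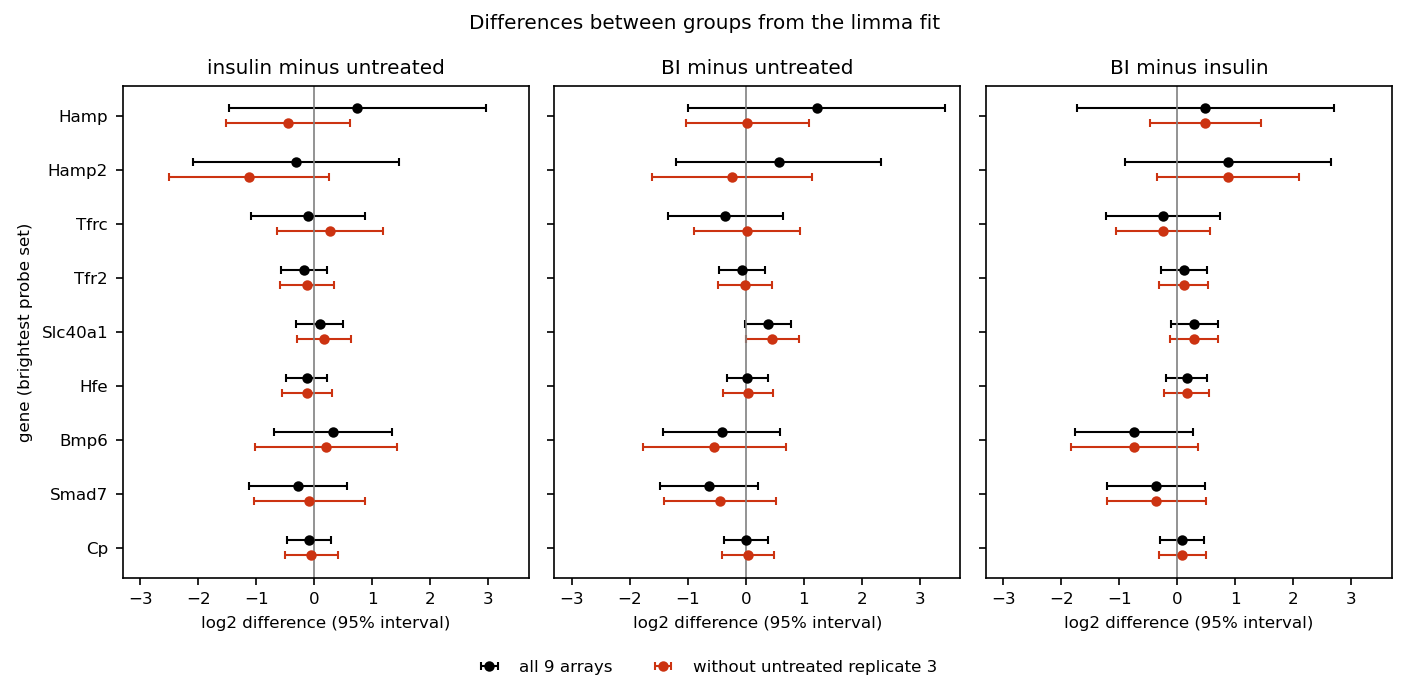
Log2 differences between groups (horizontal axis) for the brightest probe set of each of 9 members (vertical axis), with 95% intervals from limma; black points use all 9 arrays and red points leave out untreated replicate 3. Without that array the Hamp estimate moves from 0.74 to -0.46 for insulin minus untreated and from 1.22 to 0.03 for BI minus untreated.

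Hepcidin itself was the member whose signal varied most between arrays among the bright ones, and its widest spread lay within the untreated group. Hamp read 14.06, 14.32 and 10.60 in untreated replicates 1, 2 and 3, 13.96, 13.31 and 13.93 with insulin, and 14.64, 14.62 and 13.39 with BI. Untreated replicate 3 stood 10.6-fold below the median of the other 8 arrays and 6.51-fold below the lowest of them. The other 8 arrays lay within 13.31 to 14.64, where the 3 groups overlapped.

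The second Hamp probe set gave the same picture. It read 13.73, 13.92 and 10.34 in untreated liver, 13.76, 12.79 and 13.51 with insulin, and 14.58, 14.55 and 12.96 with BI. Untreated replicate 3 was again the low array, 10.6-fold below the median of the others. Over the 9 arrays the 2 probe sets correlated at r = 0.992, and the SD of the first over all arrays, 1.23, exceeded that of 99.55% of bright probe sets, here those with a mean level no lower than the median.

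By group mean, Hamp was ordered BI (14.22 ± 0.72, SD, n = 3), insulin (13.73 ± 0.37, SD, n = 3) and untreated (12.99 ± 2.07, SD, n = 3), and no neighbours in this order differed beyond their spread. The limma difference was 0.74 for insulin minus untreated (SE 0.95, 95% interval -1.47 to 2.95) and 1.22 for BI minus untreated (SE 0.95, interval -0.99 to 3.44). BI minus insulin was 0.49 (interval -1.73 to 2.70). Both differences against untreated rested on untreated replicate 3. Without it, insulin minus untreated was -0.46 (interval -1.52 to 0.61), the opposite sign, and BI minus untreated was 0.03 (interval -1.04 to 1.10).

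Hamp2, the paralogue that is not regarded as the iron-regulating hormone, followed Hamp on its brighter probe set. That probe set read 10.53, 11.11 and 8.40 in untreated liver, 10.35, 9.14 and 9.63 with insulin, and 10.81, 11.29 and 9.64 with BI. Its correlation with Hamp was r = 0.870 over 9 arrays and 0.907 without untreated replicate 3, a description over arrays that share their normalization. Untreated replicate 3 was lowest here too, 4.12-fold below the median of the others. The name of this probe set marks it as one that may bind related transcripts. The transcripts of Hamp and Hamp2 were not compared here, so how much of its signal came from Hamp is uncertain.

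The second Hamp2 probe set was dim and did not follow. It read 5.44, 5.35 and 5.91 in untreated liver, 5.04, 4.22 and 4.0 with insulin, and 3.25, 5.60 and 5.79 with BI, so its highest value was on the array where Hamp was lowest. Its correlation with the brighter Hamp2 probe set was r = -0.09. The insulin arrays lay below the untreated arrays without overlap, a difference of -1.15 (SE 0.67, limma adjusted p = 1.00), while the brighter probe set overlapped and gave -0.31. For BI minus untreated the 2 Hamp2 probe sets gave 0.57 and -0.69, and for BI minus insulin 0.87 and 0.46, each within its spread. The differences of the brighter probe set against untreated moved with single untreated arrays. Without untreated replicate 3, insulin minus untreated was -1.12 (interval -2.49 to 0.26), larger in size and of the same sign. BI minus untreated was then -0.24 (interval -1.62 to 1.13), of opposite sign. Without untreated replicate 2, insulin minus untreated was 0.24, also of opposite sign.

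**Figure D2:**
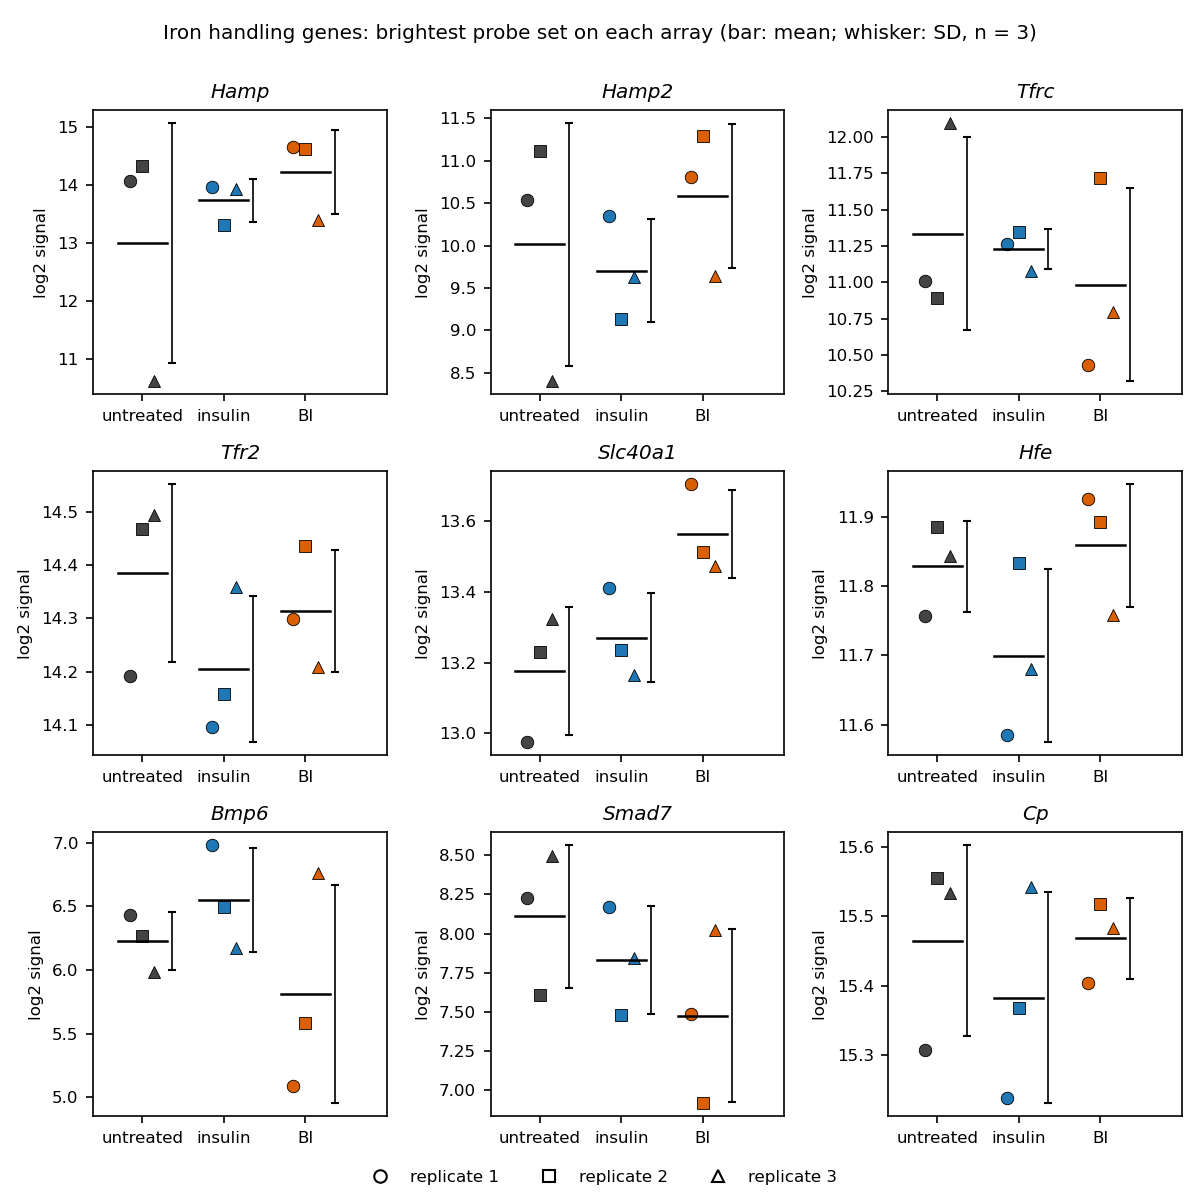
Log2 signal (vertical axis, scaled separately in each panel) of the brightest probe set of 9 members in the 3 groups; points are single arrays, marked by replicate, bars are means and whiskers 1 SD (n = 3). Untreated replicate 3 reads 10.60 for Hamp, below the 13.31 of the next lowest array, and 12.10 for Tfrc, above the 11.72 of the next highest.

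Several members besides hepcidin had an extreme value on untreated replicate 3. All 3 tested Tfrc, both Smad7, both Tfr2 and 1 Hamp2 probe set had their highest value on it, 8 of 24 members (33.3%), where 13% of bright probe sets did. Several led the next array by little, such as Tfr2 by 0.03 and 0.05 and the second Tfrc probe set by 0.02. The Tfrc control probe sets, which were not tested, were highest on insulin replicate 3, untreated replicate 3 and insulin replicate 2. Other arrays had similar counts of probe sets. Untreated replicate 2 was highest for 7 of 24 (29.2%, against 14.3%) and insulin replicate 1 lowest for 7 of 24 (29.2%, against 12.6%). Most of these were probe sets of Cp, while those highest on untreated replicate 3 came from Tfrc, Smad7, Tfr2 and Hamp2. Probe sets of one gene are not separate observations, so the counts are not counts of genes. Untreated replicate 3 held the lowest value of 3 of 24 members (12.5%, against 11.6%), the 2 of Hamp and the brighter one of Hamp2. The shares set beside these counts are over bright probe sets only, while 3 of the 24 members lay below the median level. The dimmest Tfrc and the dim Hamp2 probe set, both highest on untreated replicate 3, were among these. Of 22519 bright probe sets, 7 were lowest on this array by 2.5 log2 units or more, a limit chosen after the values were seen; other arrays had 2 to 11. Its summed hepatocyte marker level was 137.27, the highest of the 9 arrays, against 134.62 to 136.67 elsewhere. The 3' minus 5' difference of the Gapdh control probe sets, a measure of RNA integrity, was 0.65 on it against 0.26 to 0.55 elsewhere, and its part in the Hamp value was not tested.

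**Figure D3:**
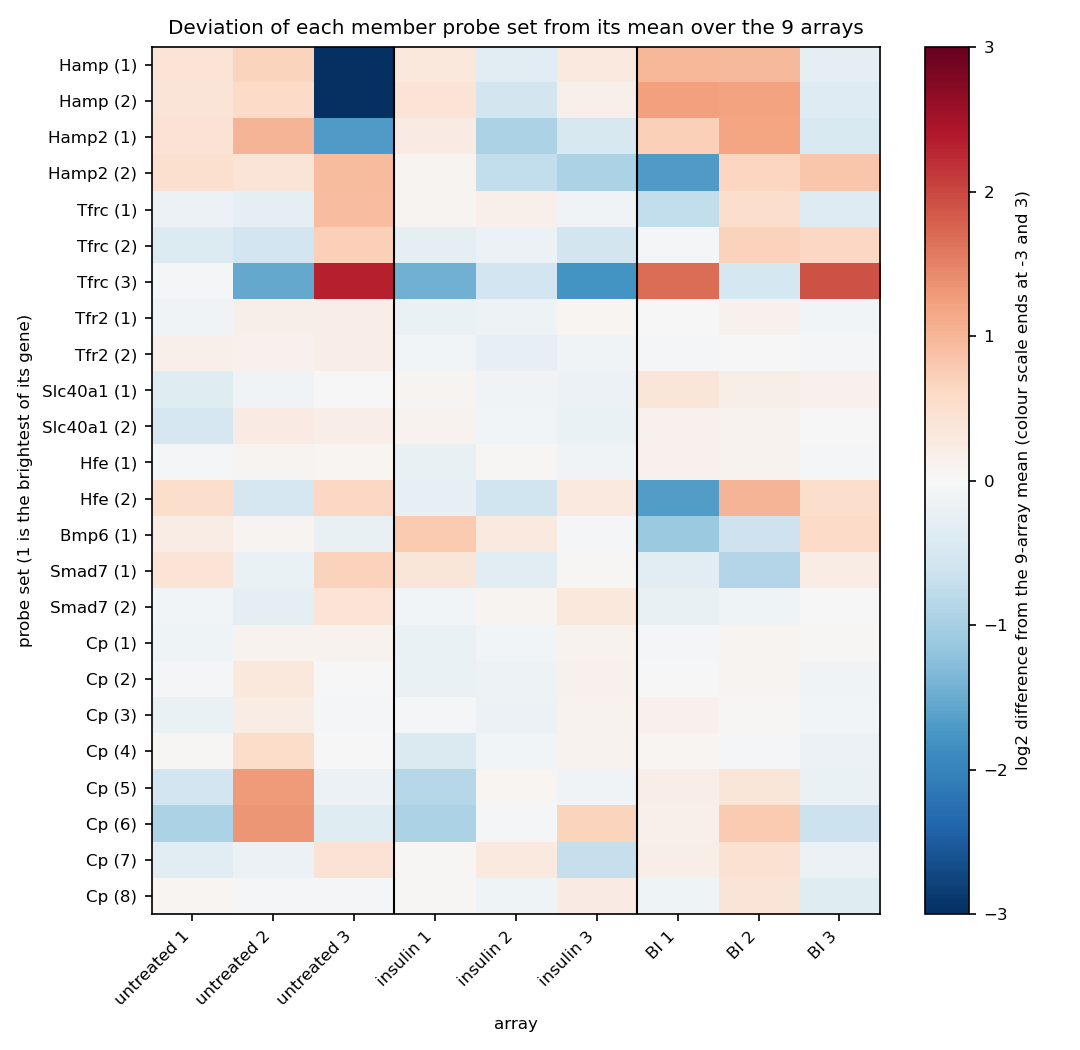
Difference of each of the 24 member probe sets (rows, numbered by brightness within a gene) from its own mean over the 9 arrays (columns), in log2 units, with a colour scale that ends 3 units either side of 0. Both Hamp rows are darkest blue at untreated replicate 3, where the 3 Tfrc rows are red.

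Transferrin receptor 1 (Tfrc), which imports transferrin-bound iron and whose mRNA is stabilised when cell iron is low, was read differently by its 3 probe sets. The brightest read 11.01, 10.89 and 12.10 in untreated liver, 11.27, 11.34 and 11.08 with insulin, and 10.43, 11.72 and 10.79 with BI. The groups overlapped, and the means were 11.33 ± 0.66, 11.23 ± 0.14 and 10.98 ± 0.66 (SD, n = 3). Limma differences were -0.11, -0.35 and -0.25 for insulin minus untreated, BI minus untreated and BI minus insulin, with the 95% interval of BI minus untreated from -1.34 to 0.63. Both signs against untreated turned without untreated replicate 3, to 0.28 (interval -0.64 to 1.19) with insulin and 0.03 (interval -0.88 to 0.94) with BI.

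The second Tfrc probe set read 5.65, 5.49 and 6.78 in untreated liver, 5.77, 5.88 and 5.52 with insulin, and 6.03, 6.76 and 6.68 with BI. The third, below the median level, read 3.20, 1.72 and 5.57, then 1.80, 2.68 and 1.46, then 4.92, 2.73 and 5.16 in the same order. In both, every BI array stood above every insulin array, by 0.77 (interval -0.11 to 1.65, limma adjusted p = 1.00) and 2.29 (interval -0.13 to 4.71, limma adjusted p = 1.00). The brightest probe set gave -0.25 for the same comparison, so the probe sets of this gene disagree in sign. Their correlations with it were r = 0.49 and 0.04. Without untreated replicate 3, BI minus untreated was 0.92 on the second probe set (interval 0.26 to 1.59, limma adjusted p = 0.791), 1.81 on the third (interval -0.25 to 3.86) and 0.03 on the brightest. Tfrc is also abundant in red cell precursors. Of 11 erythroid markers, 6 were measured, 3 of these below the median level, and their summed level was 36.30 to 42.25 in untreated, 36.28 to 40.84 in insulin and 33.97 to 41.65 in BI liver. The lowest sum of each group fell on an array with a very low reading of a dim marker. Hba-a1 read 0.96 on BI replicate 1, against 4.55 to 5.92 elsewhere. Epb42 read 1.26 on untreated replicate 1 and 1.80 on insulin replicate 3. The part of the erythroid markers in the Tfrc values was not tested.

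Tfr2, the hepatocyte transferrin receptor that senses iron, varied little. The brighter probe set stayed within 14.10 to 14.49 and the other within 12.61 to 13.05. On the latter, the untreated arrays (13.00, 13.00 and 13.05) lay above the insulin arrays (12.78, 12.61 and 12.76) and the BI arrays (12.83, 12.86 and 12.83) without overlap. Limma gave -0.30 for insulin minus untreated (interval -0.63 to 0.03, limma adjusted p = 1.00), the smallest member p of that comparison, and -0.18 for BI minus untreated (interval -0.51 to 0.15). BI lay above insulin, also without overlap, by 0.12 (interval -0.21 to 0.45). The brighter Tfr2 probe set overlapped between all groups, at -0.18, -0.07 and 0.11.

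HFE, which binds transferrin receptor 1 and is mutated in haemochromatosis, was flatter still on its brighter probe set, which stayed within 11.58 to 11.93. Its differences were -0.13, 0.03 and 0.16 in the order above, with intervals inside -0.48 to 0.52. Only 6.79% of bright probe sets had a smaller SD over the arrays. The dim Hfe probe set ranged from 3.68 to 6.38 and did not follow the other (r = -0.24).

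Ferroportin (Slc40a1), the iron exporter that hepcidin acts on as a protein, was the member with the smallest p in BI minus untreated. Its brighter probe set read 12.97, 13.23 and 13.32 in untreated liver, 13.41, 13.23 and 13.17 with insulin, and 13.70, 13.51 and 13.47 with BI. All 3 BI arrays lay above all arrays of the other groups. The difference was 0.39 for BI minus untreated (SE 0.17, interval -0.01 to 0.79, limma adjusted p = 0.999), 0.29 for BI minus insulin (interval -0.11 to 0.69) and 0.09 for insulin minus untreated. Without untreated replicate 3 the first became 0.46 (interval -0.0027 to 0.92).

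The second Slc40a1 probe set did not separate the groups. It read 9.73, 10.49 and 10.42 in untreated liver, 10.34, 10.16 and 10.04 with insulin, and 10.37, 10.35 and 10.23 with BI. Its differences were 0.10 for BI minus untreated (interval -0.44 to 0.65) and 0.14 for BI minus insulin, and it correlated with the first at r = 0.67. Ferroportin mRNA is also made by macrophages. All 10 Kupffer cell and macrophage markers were measured, 1 of them below the median level and none at 0. Their summed level was 95.89 to 99.84 in untreated, 98.79 to 102.81 in insulin and 92.86 to 102.74 in BI liver. With BI against insulin, 0 of 10 were higher (median -0.28 against -0.01 over all probe sets, 0 called). Against untreated, 8 of 10 were higher with insulin (median 0.32 against 0.02) and 5 of 10 with BI (median 0.00 against 0.02). Their part in the Slc40a1 values was not tested.

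Bmp6, the ligand that conveys liver iron to hepatocytes, was read by 1 probe set close to the median level. It read 6.43, 6.27 and 5.98 in untreated liver, 6.98, 6.50 and 6.17 with insulin, and 5.09, 5.59 and 6.76 with BI. The BI arrays spanned the widest range (5.81 ± 0.86, SD, n = 3, against 6.23 ± 0.23 and 6.55 ± 0.41), and the groups overlapped. BI minus insulin was -0.74 (interval -1.76 to 0.27), BI minus untreated -0.42 (interval -1.43 to 0.60) and insulin minus untreated 0.32 (interval -0.69 to 1.34). Single BI arrays moved these: without BI replicate 1, BI minus untreated was -0.05 and BI minus insulin -0.38, and without BI replicate 3 they were -0.89 and -1.22. Sinusoidal endothelial cells make BMP6. All 10 of their markers were measured, 1 of them below the median level and none at 0. With BI against insulin, 0 of 10 were higher (median -0.33 against -0.01 over all probe sets, 0 called). Against untreated, 9 of 10 were higher with insulin (median 0.26 against 0.02) and 3 of 10 with BI (median -0.11 against 0.02). Without untreated replicate 3 the median was 0.40 with insulin and 0.16 with BI, each against 0.03, so the BI sign turned. The summed level of these markers was 83.43 to 91.76 in untreated, 87.66 to 92.88 in insulin and 84.66 to 88.63 in BI liver. Their part in the Bmp6 values was not tested.

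Smad7, the inhibitory SMAD, read 8.22, 7.61 and 8.50 in untreated liver, 8.17, 7.48 and 7.84 with insulin, and 7.49, 6.92 and 8.02 with BI on its brighter probe set. The means were ordered untreated (8.11 ± 0.46), insulin (7.83 ± 0.35) and BI (7.47 ± 0.55, SD, n = 3 each), with overlap between all groups. BI minus untreated was -0.64 (interval -1.48 to 0.21) and insulin minus untreated -0.28 (interval -1.12 to 0.57). The second Smad7 probe set stayed within 6.98 to 7.69, and its differences were -0.13 and 0.10, so the probe sets disagreed in sign for insulin.

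Ceruloplasmin (Cp), the copper enzyme that oxidises exported iron so that transferrin can bind it, was read by 8 probe sets. The brightest stayed within 15.24 to 15.56, near the array maxima of 15.81 to 16.21, where differences can be compressed. Its differences were -0.08, 0.00 and 0.09, with intervals inside -0.46 to 0.46. The widest moving Cp probe sets were 1 reading 12.12, 13.97 and 12.52 in untreated, 11.84, 12.75 and 12.59 in insulin and 12.91, 13.07 and 12.51 in BI liver, and a dimmer one ranging from 7.99 to 10.27. Both were highest on untreated replicate 2 and lowest on insulin replicate 1. Each of the 6 brightest Cp probe sets was highest on untreated replicate 2. The groups overlapped on all 8. The probe set shared by Trf and Srprb, which cannot be given to transferrin alone, stayed within 15.07 to 15.41, with differences of -0.06, 0.03 and 0.09.

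Hamp was then set against 6 genes of its known inputs and outputs over the arrays (Bmp6; the BMP target Id1; Smad7; the STAT3 target Socs3; the acute phase gene Saa1; Tfrc). None of the 6 relations passed an exact two-sided permutation test after adjustment over the 6. The relation was r = -0.65 with Tfrc (rho = -0.47, exact permutation p = 0.0648, adjusted p = 0.202) and r = -0.64 with Smad7 (rho = -0.47, exact permutation p = 0.0672, adjusted p = 0.202). With Socs3 it was r = 0.48 (rho = 0.45, exact permutation p = 0.190, adjusted p = 0.381). Saa1 gave r = -0.36 (rho = -0.25, exact permutation p = 0.372, adjusted p = 0.546), Id1 r = -0.29 (rho = -0.62, exact permutation p = 0.455, adjusted p = 0.546) and Bmp6 r = -0.16 (rho = -0.45, exact permutation p = 0.657, adjusted p = 0.657). For rho the exact permutation p ranged from 0.0857 for Id1 to 0.521 for Saa1, with an adjusted p of 0.276 for each relation but Saa1, where it was 0.521.

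Leaving out untreated replicate 3 changed which genes ran opposite to Hamp. Over the other 8 arrays, r was -0.07 for Tfrc and -0.46 for Smad7. The Tfrc relation depended on 2 arrays: without BI replicate 2 it was r = -0.886 (rho = -0.74, exact permutation p = 0.00823, adjusted p = 0.0494), the only adjusted p past the threshold among all settings run for the 6 relations. Id1 became r = -0.83 (rho = -0.76, exact permutation p = 0.0120, adjusted p = 0.0720) and Bmp6 r = -0.76 (rho = -0.71, exact permutation p = 0.0278, adjusted p = 0.0833), both short of the threshold after adjustment. Saa1 turned to r = 0.23 and Socs3 kept its sign at 0.52. Without the 2 arrays farthest from the median of the other gene (n = 7), r was -0.61 for Tfrc, -0.17 for Smad7, 0.62 for Socs3, 0.33 for Saa1, -0.28 for Id1 and 0.00 for Bmp6. With values centred on their group means and pairings permuted only within groups, Socs3 had r = 0.77 (exact permutation p = 0.0556, adjusted p = 0.333) and Tfrc -0.62.

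**Figure D4:**
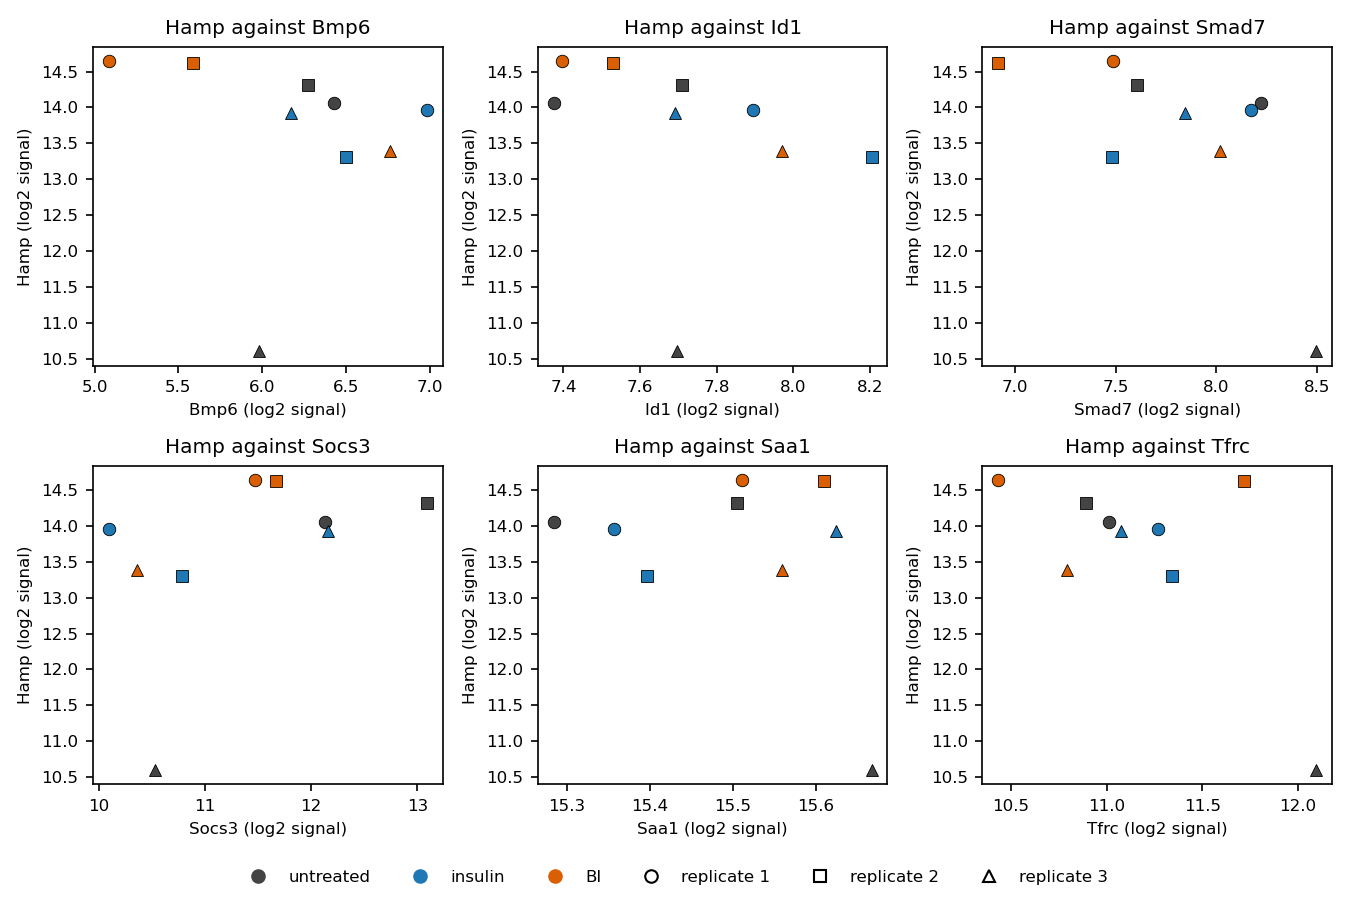
Log2 signal of Hamp (vertical axis) against Bmp6, Id1, Smad7, Socs3, Saa1 and Tfrc (horizontal axes) on the 9 arrays, coloured by group and marked by replicate. Untreated replicate 3, at 10.60 for Hamp, lies far below the other 8 points in every panel.

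Socs3, which STAT3 induces and which inhibits it in turn, read 12.13, 13.09 and 10.53 in untreated liver, 10.10, 10.79 and 12.16 with insulin, and 11.47, 11.67 and 10.36 with BI. The array lowest for Hamp was also the lowest for Socs3 in untreated and BI liver, but not with insulin. Id1 stayed within 7.37 to 8.20 and Saa1 within 15.28 to 15.67, the latter again near the array maxima.

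Of 19332 probe sets ranked by r with Hamp over the 9 arrays, the 5 most like it were Wwc2 (r = 0.953), Ubp1 (0.941), Osgin2 (0.927), Coprs (0.926) and Snrnp27 (0.924). All 5 had their lowest value on untreated replicate 3. Without it their r with Hamp was 0.67, 0.78, 0.46, 0.77 and 0.41, in that order.

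Among the other genes of BMP and SMAD control, 21 of 25 were measured and none passed the threshold in any comparison. The list split 11 higher and 10 lower for insulin minus untreated (median 0.00 against 0.02 over all probe sets), 14 and 7 for BI minus untreated (median 0.05 against 0.02) and 12 and 9 for BI minus insulin (median 0.02 against -0.01). Hjv, the BMP co-receptor hemojuvelin that hepcidin expression requires, read 11.11, 11.05 and 11.04 in untreated liver, 10.45, 10.94 and 10.66 with insulin, and 11.30, 11.04 and 11.31 with BI. Every insulin array lay below every array of the other groups. Insulin minus untreated was -0.38 (interval -0.81 to 0.05) and BI minus insulin 0.53 (interval 0.11 to 0.96, limma adjusted p = 1.00). Atoh8, a BMP-responsive transcription factor, was dim and gave -1.46 for insulin minus untreated and 1.34 for BI minus insulin (SE 0.83). Single arrays stood far from their groups: it read 7.13, 4.0 and 4.21 in untreated liver, 3.68, 3.44 and 3.84 with insulin, and 5.88, 4.23 and 4.86 with BI. Id2, a BMP target, and Pcsk6, a proprotein convertase, had the smallest p in BI minus untreated, at 0.36 (SE 0.21) and 0.30 (SE 0.21).

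The genes of interleukin 6 and STAT3 input (11 of 11 measured) had no member past the threshold and split 5 higher and 6 lower, 2 and 9, and 2 and 9 in the 3 comparisons, in the order insulin minus untreated, BI minus untreated and BI minus insulin. Il6st, the signalling receptor subunit gp130, gave -1.17 for BI minus untreated and -1.13 for BI minus insulin (SE 0.65). BI replicate 3 read 9.57, where the other 8 arrays read 11.64 to 12.62. Stat3 gave -0.32 with insulin and -0.34 with BI against untreated (SE 0.25), Socs3 -0.90 with insulin against untreated (SE 0.77), and Il6ra, the interleukin 6 receptor, -0.41 in BI minus insulin (SE 0.26). Inflammation readouts (12 of 12 measured) split 3 and 9, 5 and 7, and 9 and 3, with 0 past the threshold. Lcn2, an iron siderophore binding protein, was -0.55 in insulin minus untreated and 0.27 in BI minus insulin (SE 0.39), and Saa1 gave 0.10 in the latter. Orm2, an acute phase protein, gave -0.72 with insulin and -0.65 with BI against untreated (SE 0.58). Saa3, also an acute phase protein, gave -1.21 in BI minus untreated (SE 0.86), where untreated replicate 2 read 14.27 and the other 8 arrays 10.16 to 12.14. The neutrophil genes S100a8 and S100a9 were highest on that array too, at 12.74 and 11.29, and the summed level of the 7 neutrophil markers, 2 of them below the median level and none at 0, was 57.08 on it against 44.10 to 50.15 elsewhere. Their part in the Saa3 values was not tested.

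Iron storage genes and the iron regulatory proteins (9 of 10 measured) had list medians of 0.03, 0.04 and -0.01 and 0 members past the threshold. Fth1, the ferritin heavy chain, stayed within 15.30 to 15.55, and its BI arrays lay above its insulin arrays by 0.11 (interval -0.23 to 0.45). Aco1, an iron regulatory protein, gave 0.10 in that comparison (SE 0.15). Against untreated, Pcbp3, of the iron chaperone family, gave 0.41 with insulin and 0.28 with BI (SE 0.37), and Fbxl5, which targets an iron regulatory protein for degradation, -0.10 and -0.16 (SE 0.17). Genes of iron uptake and export (16 of 16 measured) split 7 higher and 9 lower with insulin, 4 and 12 with BI against untreated, and 4 and 12 with BI against insulin, with medians of -0.05, -0.15 and -0.16 and 0 past the threshold. Heph, the ferroxidase hephaestin related to ceruloplasmin, read 5.88, 5.97 and 6.66 in untreated liver, 6.15, 5.42 and 5.32 with insulin, and 4.84, 5.06 and 5.65 with BI. BI lay below untreated without overlap, by a difference of -0.99 (interval -1.79 to -0.19, limma adjusted p = 0.999). The other Heph differences were -0.54 for insulin minus untreated and -0.45 for BI minus insulin (SE 0.34). Lrp1, a receptor that takes up haem bound to hemopexin, gave -0.43 in insulin minus untreated (SE 0.25), Mcoln1, a lysosomal cation channel, -0.24 in BI minus untreated (SE 0.22), and Slc39a14, a transporter of iron not bound to transferrin, -0.31 in BI minus insulin (SE 0.35).

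Haem synthesis and breakdown genes (14 of 15 measured) split 4 and 10, 5 and 9, and 5 and 9, with medians of -0.12, -0.13 and -0.03 and 0 past the threshold. In insulin against untreated, 5 of the 14 had groups that did not overlap, against 9.19% of all probe sets. It was 1 of 14 in BI against untreated (9.21%) and 2 of 14 in BI against insulin (9.6%). The haem list was picked for this count after the values were seen. In the other pathway lists at most 2 genes per comparison did not overlap. Slc46a1, a haem and folate carrier, gave -0.34 in insulin minus untreated (interval -0.66 to -0.01, limma adjusted p = 1.00), and Ppox, a haem synthesis enzyme, 0.42 (interval -0.11 to 0.95). In BI minus untreated, Slc46a1 gave -0.24 (SE 0.14) and Hmox1, the inducible haem oxygenase, -0.66 (SE 0.45). The biliverdin reductases Blvrb and Blvra gave 0.44 (interval -0.04 to 0.92) and -0.18 (SE 0.21) in BI minus insulin. Iron-sulphur cluster assembly genes (10 of 12 measured) had medians of -0.01, 0.02 and 0.01, and the hypoxia and copper genes (9 of 9 measured) medians of 0.00, -0.06 and -0.04. Neither list had a member past the threshold. In the first, the smallest p was that of Bola3 for both comparisons against untreated (-0.17 and -0.18, SE 0.15), followed by the scaffold Iscu with insulin (0.14, SE 0.18) and the co-chaperone Hscb with BI (0.17, SE 0.22); in BI minus insulin Hscb gave 0.18 and the cysteine desulfurase Nfs1 0.11 (SE 0.15). In the second, Epas1, the hypoxia-inducible factor 2 alpha, gave 0.11 and 0.20 against untreated (SE 0.17), the metallothionein Mt2 0.44 with insulin (SE 1.11) and Hif1a -0.14 with BI (SE 0.18). BI minus insulin was 0.14 for the copper importer Slc31a1 (SE 0.16) and -0.09 for Hif1a.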

How the data were processed

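RNA from KKAy liver was isolated with TRIzol and RNeasy columns and labelled for 3' arrays, per the labels' protocols. The authors deposited log2 signals per probe set; the software and normalization behind them are not given in the sources used here. Each array has a 2% trimmed mean linear signal of 500.004 and a floor of 0 on the log2 scale (152 to 247 probe sets), so values were used as deposited. Of 45101 probe sets, 64 control ones were left out and 45037 tested; 34945 had 1 gene symbol, 932 several and 9160 none in the platform annotation. For 34741 of those with 1 symbol, the current symbol was taken by gene ID, whether or not it differed from the annotated one.

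All 9 arrays entered 1 limma 3.58.1 fit (R 4.3.3; lmFit, eBayes with no trend; 6 residual degrees of freedom), with two-sided tests, Benjamini-Hochberg adjustment over 45037 probe sets and a threshold of 0.05. The fit was also run on simulated data with large added changes. That run does not show how often differences as small as those of most members would be found. Intervals are 95% limma intervals, and the number of arrays limits their precision. Correlations used exact permutation of pairings over arrays (scipy 1.17.1), or only within groups for the group-centred values. Values on every array are given for Hamp, Hamp2, Tfrc, Slc40a1, Bmp6 and Smad7; for the other lists, genes past the threshold are named, or failing these the 2 of smallest p. A gene is represented by its brightest probe set. Steap3, Alas1, Mt1, Mt2 and Steap4 in the closing section were chosen after their values were seen, as were the array values of Tfr2, Cp, Hjv, Heph, Il6st, Atoh8, Saa3, S100a8 and S100a9. The members, lists and tests were chosen with earlier results of these data known. Alternatives were equal array medians, quantile normalization, leaving out dim probe sets, variance trend with robust fitting, a replicate block, only the groups compared, averaging the probe sets per gene, group-centred correlations and leaving out each array. Promoter windows came from RefSeq (GRCm38.p6) and were matched by symbol for 7 members, after member windows of a single chromosome were left out. That chromosome stayed in the shares over all windows. Motifs were searched in Python 3.11.15.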

Additional observations from a re-analysis of the deposited data

How the results depend on the processing

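The count of 0 members past the threshold held in every comparison and in the F test under each alternative run, including a fit without BI replicate 2. Over all probe sets, the count of 5 for BI minus untreated became 1 without dim probe sets and 0 with only the groups compared. It was 0 to 2 when 1 array was left out. Quantile normalization gave 4, equal array medians 5 and a variance trend with robust fitting 6. Of these last 6, only 1 was among the 5 of the main fit. Without dim probe sets, BI minus insulin and the F test gave 1 each in place of 0, and leaving out 1 array gave 0 to 1 for both. The relation of Hamp with Tfrc ranged from r = -0.886 (without BI replicate 2, exact permutation, adjusted p = 0.0494, past the threshold) to -0.068 (without untreated replicate 3) when 1 array was left out. Signs of member differences, none of which passed, turned in 3 of 423 probe set values under the alternatives other than leaving out 1 array, and in 54 of 648 when 1 array was left out. Averaging the probe sets of a gene turned 5 of 27 gene values: Tfrc in BI minus untreated (0.31) and BI minus insulin (0.94), and Hamp2 (-0.06), Hfe (-0.11) and Cp (-0.01) in BI minus untreated. Depth of signal limits the dim probe sets, since detection calls were not used.

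With the replicate number as a block, 0 members and 0 of all probe sets passed in each comparison, so that the 5 of BI minus untreated were lost. The numbers are not shown to pair the arrays: deviations of same-numbered arrays correlated from -0.16 to 0.15, and those of other pairs from -0.15 to 0.16.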

Other observations

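Some iron-related genes outside the members had single arrays far from the rest. Steap3, a ferrireductase of the transferrin cycle, read 3.26 on untreated replicate 3, the array lowest for Hamp, and 6.14 to 7.01 on the other 8. Alas1, the first enzyme of haem synthesis, ranged from 10.94 on BI replicate 3 to 14.03 on insulin replicate 1. The metal-binding proteins Mt1 and Mt2 and the metalloreductase Steap4 were lowest on untreated replicate 3, insulin replicate 1 and BI replicate 3. On these 3 arrays Mt1 read 11.06, 11.97 and 11.34, against 13.55 to 15.29 on the other 6. Mt2 read 11.40, 12.38 and 11.91, against 14.10 to 14.88, and Steap4 12.13, 11.91 and 11.78, against 13.37 to 14.44.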
